A study of Mus musculus with 4 samples.

Results

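The type I interferon response genes examined here are 36 genes, chosen as a list of known interferon-stimulated genes present among the 27998 genes of the RNA count table of CD11b+ mouse splenocytes. They comprise 4 genes that carry or regulate the interferon signal (Stat2, Irf9, Irf7 and Usp18), 5 nucleic acid sensors (Ifih1, Ddx58, Dhx58, Zbp1 and Ifi204), 5 genes of the oligoadenylate synthetase family (Oas1a, Oas2, Oas3, Oasl1 and Oasl2), 3 IFIT genes (Ifit1, Ifit2 and Ifit3), 14 other effectors and induced genes, 4 interferon-induced GTPases (Gbp2, Gbp3, Irgm1 and Ifi47) and the chemokine gene Cxcl10. The study profiled FACS-sorted CD11b+ splenocytes by CITE-seq, which counts the RNA of each cell together with antibody tags, to describe monocyte-derived cells that arise under GM-CSF, the growth factor granulocyte-macrophage colony-stimulating factor. It held 1 library from mice in steady state, with no GM-CSF, and 1 library from mice given 3 once-daily subcutaneous injections of 10 µg GM-CSF and taken 24 h after the last. The mice were 8 to 12 weeks old and each library aimed at 7000 cells. The study's wild-type mice were C57BL/6, but the strain, sex and number of mice were not given for these libraries in the sources used here. With 1 library per condition, the condition and the library cannot be told apart, cells are not replicates, and no test was made. Every interval is an exact 95% interval that covers counting error only.

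Several members lie close together in the genome (GRCm38, GENCODE gene ends). Ifit2, Ifit3 and Ifit1 lie on chromosome 19 between bases 34550694 and 34650009, Rsad2 (26442746 to 26456452) and Cmpk2 (26469204 to 26479837) on chromosome 12, and Gbp3 (142560026 to 142573209) and Gbp2 (142620602 to 142638008) on chromosome 3. Oasl2 and Oasl1 lie on chromosome 5 between 114896936 and 114937915, and Oas2, Oas3 and Oas1a farther along it between 120730333 and 120907521. Irf7 (141262706 to 141266481) and Ifitm3 (141009586 to 141010770) lie on chromosome 7, Ifi204 (173747293 to 173766943) on chromosome 1, Isg15 (156199424 to 156200818) on chromosome 4 and Cxcl10 (92346638 to 92348889) on chromosome 5.

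Type I interferons bind the IFNAR1 and IFNAR2 receptor chains, and the kinases JAK1 and TYK2 then activate transcription factors that include STAT2. With IRF9, STAT2 is part of a complex that binds the interferon-stimulated response element (ISRE) in the promoters of its target genes, among them antiviral effectors, sensors of viral nucleic acid and IRF7, which amplifies the response. Many of the targets also have a tonic level in resting monocytes and macrophages, while others are nearly silent without interferon. The second kind is called the core set here, and it comprises 10 members (Ifit1, Ifit2, Ifit3, Isg15, Rsad2, Usp18, Cmpk2, Oasl1, Mx1 and Ifi44). Levels are given as CPM: the unique molecular identifiers (UMIs, each a captured molecule) of a gene in all cells of a group, scaled to a group total of 1000000. The module level is the sum over all 36 members.

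The steady-state library had 4827 cells with a median of 3371 UMIs and the GM-CSF library had 6804 cells with a median of 4916 UMIs, and 8 cell barcodes occurred in both. The authors assigned the cells to 12 cell types, and they regrouped the cells labelled MoMacDC_c1, c2, c4 and c5 and progenitor dendritic cells (DCs), called the MoMacDC bundle here, into 17 RNA clusters. Cells labelled macrophage, activated DC or cDC2-A were outside it. The bundle had 2135 steady-state and 3940 GM-CSF cells. Cells labelled granulocyte carried all 9 neutrophil markers at 106503 and 103085 CPM in steady state and under GM-CSF. The cells labelled cDC2-A carried natural killer (NK) cell markers at 16048 and 16181 CPM and cDC2 markers at 21.0 and 15.9 CPM, so this label goes against its markers. Cell types and clusters were made from RNA of the same cells, the members included, so their module levels are a description.

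Promoters of the members were looked up in RefSeq, on build GRCm38.p6, from 250 bases before to 50 after the annotated start. The table held 27 of the 36 members. The ISRE core, spelled GAAANNGAA and searched on both strands, occurred in 18 of these 27 genes (66.7%) and in 2638 of all 27025 genes of the table (9.76%). The gamma-activated sequence, spelled TTCNNNGAA, occurred in 5 of the 27 (18.5%) and in 9.55% of all genes. By role, the ISRE core was found in both sensors with a promoter entry, 2 of 3 IFIT genes, 7 of 10 effectors, 3 of 4 GTPases, 2 of 4 oligoadenylate synthetase genes, 1 of 3 signalling genes and Cxcl10. A match is a run of letters and not evidence of binding, and no match says only that the letters are missing in this window. The promoters of 3 core genes and of the GTPase gene Gbp2 are shown because their levels are compared throughout, read 5′ to 3′ along the gene, with the ISRE cores in capitals. They are Ifit1 on the + strand at chr19:34640639-34640938, Isg15 on the - strand at chr4:156200769-156201068, Rsad2 on the - strand at chr12:26456403-26456702 and Gbp2 on the + strand at chr3:142620413-142620712.
Ifit1: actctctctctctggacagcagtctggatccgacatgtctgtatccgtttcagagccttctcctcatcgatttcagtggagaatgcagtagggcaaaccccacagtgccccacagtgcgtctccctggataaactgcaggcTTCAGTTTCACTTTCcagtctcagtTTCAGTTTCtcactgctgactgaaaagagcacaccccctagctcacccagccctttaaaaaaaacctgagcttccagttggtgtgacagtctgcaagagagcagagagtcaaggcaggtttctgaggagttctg
Isg15: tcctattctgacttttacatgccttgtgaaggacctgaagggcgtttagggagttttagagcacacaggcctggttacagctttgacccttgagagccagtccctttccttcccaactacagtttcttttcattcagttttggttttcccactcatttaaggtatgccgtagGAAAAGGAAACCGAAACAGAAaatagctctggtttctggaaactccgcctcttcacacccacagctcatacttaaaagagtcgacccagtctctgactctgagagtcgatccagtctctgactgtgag
Rsad2: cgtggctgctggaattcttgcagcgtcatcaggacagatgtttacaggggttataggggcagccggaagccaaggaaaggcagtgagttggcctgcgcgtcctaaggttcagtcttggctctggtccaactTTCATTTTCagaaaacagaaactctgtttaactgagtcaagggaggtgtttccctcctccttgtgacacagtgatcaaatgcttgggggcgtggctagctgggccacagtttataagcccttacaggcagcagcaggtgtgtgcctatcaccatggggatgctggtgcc
Gbp2: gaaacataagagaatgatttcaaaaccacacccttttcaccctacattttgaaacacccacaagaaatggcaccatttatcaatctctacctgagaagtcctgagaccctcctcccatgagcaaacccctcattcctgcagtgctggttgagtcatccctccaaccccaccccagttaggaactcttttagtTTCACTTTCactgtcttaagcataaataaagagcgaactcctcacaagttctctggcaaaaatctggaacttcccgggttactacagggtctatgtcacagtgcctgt
Ifit1 held 3 cores that start 109, 103 and 84 bases before its start, the first pair of them overlapping. Isg15 held 3 overlapping cores at 78, 72 and 66 bases, Rsad2 held 1 at 119 bases and Gbp2 held 1 at 58 bases.

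The interferon response genes stood lower in the GM-CSF library than in the steady-state library in nearly every cell population, and the order of the populations differed between the whole module and the core set. In the MoMacDC bundle the module was at 7976 CPM (7931 to 8021) in steady state and 3515 CPM (3493 to 3538) under GM-CSF, a ratio of 0.441 (0.437 to 0.444), or 2.27-fold lower. The core set was at 460 and 189 CPM, a ratio of 0.410 (0.396 to 0.426). Over the 10860 genes with at least 50 UMIs in the bundle, the median ratio was 0.959. In granulocytes the module went from 6999 to 3604 CPM (ratio 0.515, 0.503 to 0.528), and the core set from 1344 to 341 CPM (0.254, 0.235 to 0.273), or 3.94-fold lower. Steady-state granulocytes thus held the highest core level of the 12 cell types in either library, while the highest module level was that of steady-state MoMacDC_c1 cells.

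**Figure D1:**
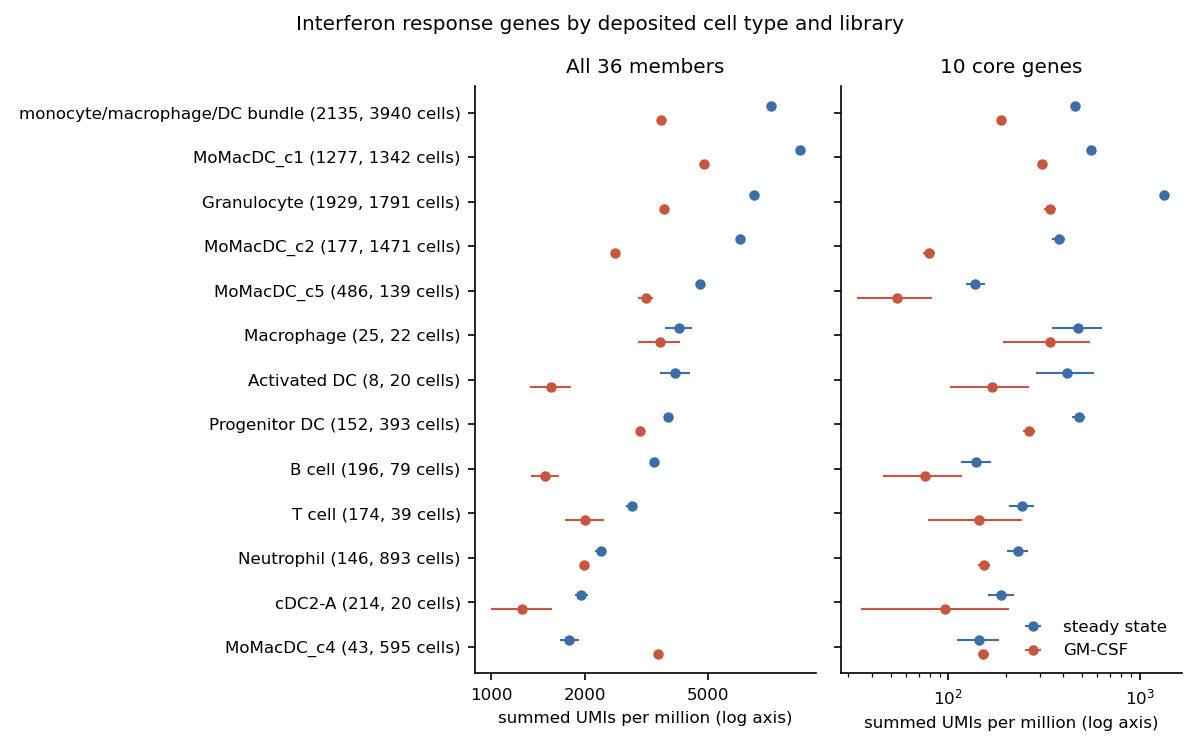
Summed level of all 36 members (left) and of the 10 core genes (right) in CPM on a log axis, for the MoMacDC bundle and each of the 12 cell types, with steady state in blue and GM-CSF in red; numbers in brackets are steady-state and GM-CSF cells, and bars are exact 95% Poisson intervals. The module is lower under GM-CSF in 11 of 12 types, MoMacDC_c4 excepted, and the core level of steady-state granulocytes (1344 CPM) lies to the right of all others.

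The module was lower under GM-CSF in 11 of 12 cell types, with the interval below 1 in 10 of them, and in all 7 types with at least 50 cells in each library. Among these 7 the ratio ran from 0.397 in MoMacDC_c2, where the module went from 6313 to 2505 CPM and the core set from 378 to 79.8 CPM, to 0.886 in neutrophils, at 2253 and 1997 CPM. MoMacDC_c1, the type with the highest level, had 9841 and 4835 CPM (0.491). Progenitor DCs were at 3719 and 3008 CPM (0.809), and B cells at 3355 and 1490 CPM (0.445). Macrophages had only 25 and 22 cells, and their interval spanned 1 (0.871, 0.720 to 1.05).

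MoMacDC_c4 was the exception, with 1787 CPM in 43 steady-state cells and 3450 CPM in 595 GM-CSF cells, a ratio of 1.93 (1.80 to 2.07), while its core ratio was 1.05 (0.819 to 1.38). NK cell markers summed to 10035 CPM in its steady-state cells and to 1.92 CPM in its GM-CSF cells. Of the 43 steady-state cells, 27 had at least 3 NK marker UMIs, and their module level was 911 CPM. The other 16 were at 3040 CPM (2794 to 3302), which left a ratio of 1.13 (1.04 to 1.24).

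Taken gene by gene in the bundle, all 36 members had at least 50 UMIs, and 20 were at least 2-fold lower under GM-CSF while 0 were at least 2-fold higher. Of all 10860 genes tested in these cells, 9.46% were at least 2-fold lower and 8.66% at least 2-fold higher. The median log2 ratio of the members was -1.01, against -0.06 over all genes. The bundle pools types whose cell numbers differed, such as MoMacDC_c1 with 1277 and 1342 cells and MoMacDC_c2 with 177 and 1471. Within single types, the tested members had a median log2 ratio of -0.71 in MoMacDC_c1, -1.53 in c2 and -0.58 in c5. It was -0.30 in progenitor DCs and 0.66 in c4. Over all genes it ran from -0.16 in c4 to -0.03 in c2. The part of this mix in the bundle values was not tested. Ifitm3, whose product blocks the entry of viruses into cells, held 34.1% of all module UMIs of the series and Ifi27l2a held 17.7%, so both weigh on the sum. Without them and Trim30a the bundle ratio was 0.524.

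Among the signalling genes, Irf7, the amplifier of the response, was at 160 CPM in steady state and 38.6 CPM under GM-CSF (0.242, 0.225 to 0.260). Usp18, which restrains signalling at the receptor, was at 38.8 and 19.3 CPM (0.498). Stat2 and Irf9, subunits of the ISRE-binding complex, moved less, from 62.9 to 48.1 CPM (0.765) and from 102 to 87.7 CPM (0.863).

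Of the sensors, Ifi204, a member of the family that binds DNA, had the lowest ratio of all 36 members, with 342 CPM in steady state and 76.0 CPM under GM-CSF (0.222, 0.211 to 0.234). Zbp1, a sensor of left-handed nucleic acid, was at 131 and 59.4 CPM (0.454). The RNA helicase genes Ifih1, Ddx58 and Dhx58, which encode MDA5, RIG-I and LGP2, lay between 0.563 and 0.737, short of 2-fold. Thus 2 of 5 sensors were past 2-fold.

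The oligoadenylate synthetase family, whose enzymes make the messenger that activates RNase L or, for the Oasl genes, act without it, had 4 of 5 members past 2-fold. Oasl2 was at 135 and 45.0 CPM (0.333), Oas3 at 112 and 37.8 CPM (0.339), Oas2 at 46.0 and 18.1 CPM (0.394) and Oasl1 at 17.7 and 7.97 CPM (0.450). Oas1a was just short of the limit at 0.514, and its reads may be split with near-identical Oas1 copies. All 3 IFIT genes, which bind foreign RNA, were past 2-fold, with Ifit1 at 48.2 and 21.5 CPM (0.447), Ifit2 at 35.9 and 14.7 CPM (0.410) and Ifit3 at 48.3 and 18.5 CPM (0.383). Ifit3 has a close copy, Ifit3b, with which reads may be shared.

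Among the other effectors 6 of 14 were past 2-fold. Rsad2, which encodes viperin, was at 67.4 and 17.1 CPM (0.254), and its chromosomal neighbour Cmpk2 was at 50.8 and 11.7 CPM (0.231). Ifitm3 was at 3166 and 1119 CPM (0.354) and Ifi27l2a at 1478 and 625 CPM (0.423). Isg15, the ubiquitin-like modifier, was at 111 and 55.4 CPM (0.498), and Xaf1 at 70.7 and 35.3 CPM (0.499) was the last gene inside the limit. Ifi44 lay just outside it with 5.75 and 2.88 CPM (0.501, 0.364 to 0.688), the rarest member with 175 UMIs in the series. The smallest difference of this group was that of Ifi203, at 266 and 216 CPM (0.810).

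The GTPases split. Irgm1, which acts in autophagy and the defence against intracellular microbes, was at 76.6 and 27.4 CPM (0.358) and Ifi47 at 97.4 and 45.3 CPM (0.465). Gbp2 was almost level at 61.7 and 56.4 CPM (0.913, 0.841 to 0.992). Gbp3 was the only one of the 36 members on the higher side, with 58.7 CPM in steady state and 86.0 CPM under GM-CSF (1.47, 1.36 to 1.59), short of 2-fold. Cxcl10, a chemokine that attracts activated T cells, was at 57.0 and 27.3 CPM (0.479).

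The libraries also differed in other ways in the bundle. The median share of mitochondrial UMIs was 3.40% in steady state and 4.54% under GM-CSF, and 76.0% and 64.0% of cells were in G1 phase. The 4 classical monocyte markers summed to 2048 and 625 CPM and the 6 non-classical monocyte markers to 1550 and 235 CPM. The part of these differences in the module ratio was not tested, except that cells with at most 5% mitochondrial UMIs had a ratio of 0.421.

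**Figure D2:**
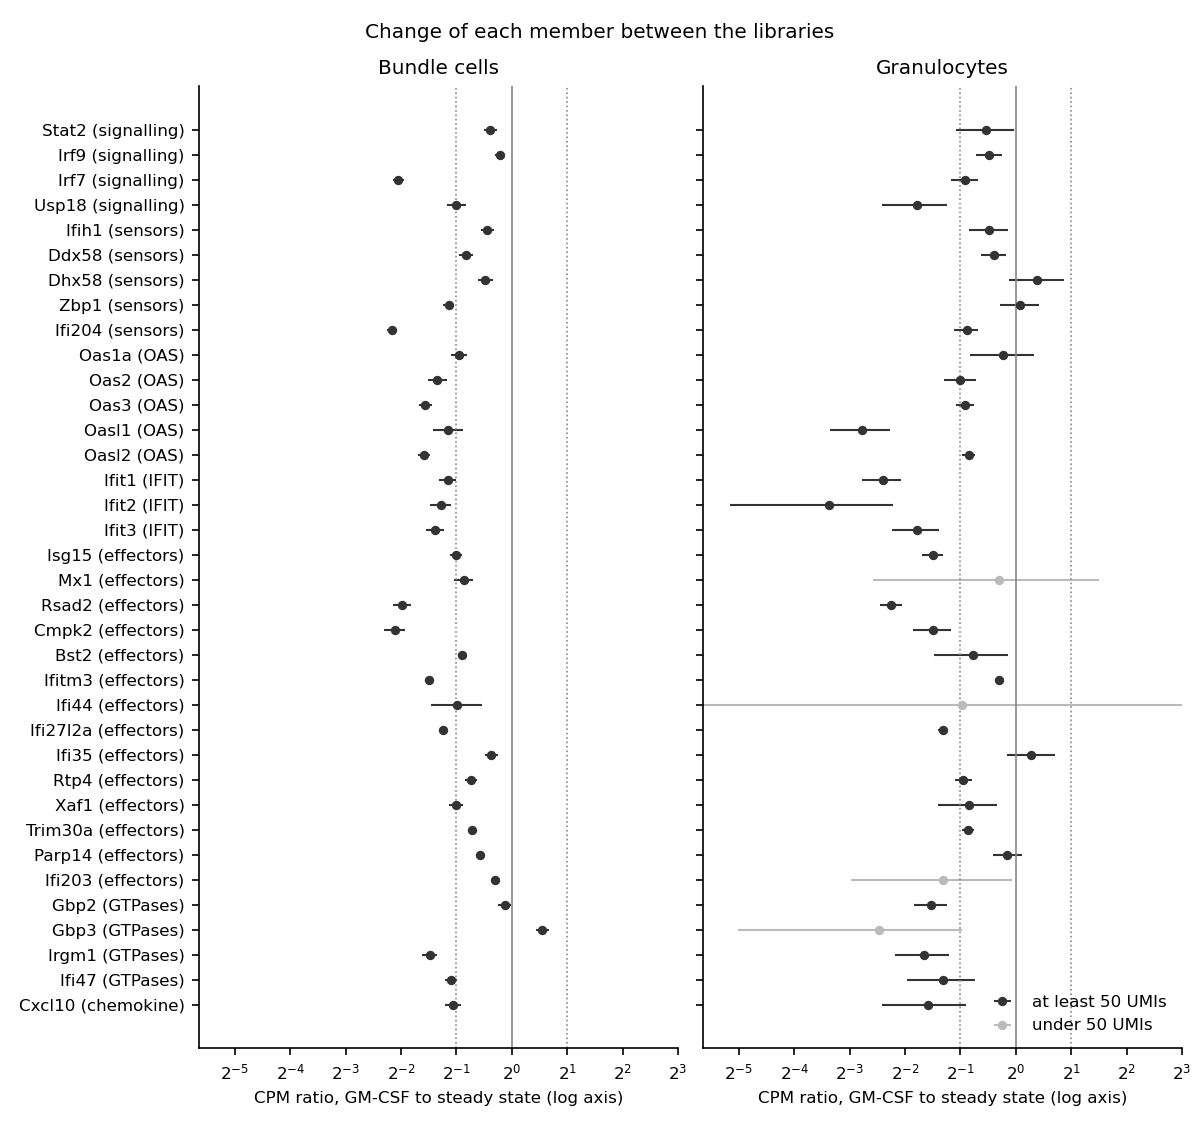
CPM ratio of GM-CSF to steady state for each of the 36 members on a log axis, in bundle cells (left) and granulocytes (right), with exact 95% intervals; grey points had fewer than 50 UMIs, dotted lines mark 2-fold, and the Ifi44 interval in granulocytes runs past the axis. In the bundle all members but Gbp3 (1.47) lie below 1, with Ifi204 lowest at 0.222, and in granulocytes Ifit2 lies lowest at 0.0968.

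In granulocytes 32 of 36 members had at least 50 UMIs (Mx1, Ifi44, Ifi203 and Gbp3 did not), and 14 of them were at least 2-fold lower under GM-CSF and 0 at least 2-fold higher. Of all 6257 genes tested there, 3.2% were at least 2-fold lower and 7.29% at least 2-fold higher. The median log2 ratio of the members was -0.92, against 0.11 over all genes. Granulocytes had a median of 1770 UMIs in steady state and 1229 under GM-CSF.

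The lowest ratios in granulocytes were those of 6 core genes, Ifit2, Oasl1, Ifit1, Rsad2, Ifit3 and Usp18. Rsad2 was at 503 and 106 CPM (0.210, 0.183 to 0.239), Ifit1 at 172 and 32.3 CPM (0.189), Oasl1 at 94.7 and 13.7 CPM (0.146), Ifit3 at 79.5 and 22.8 CPM (0.289) and Usp18 at 44.9 and 12.8 CPM (0.290). Ifit2 had 86 UMIs in steady state and 5 under GM-CSF (0.0968, 0.0280 to 0.215). Isg15 was at 318 and 112 CPM (0.354) and Cmpk2 at 106 and 37.3 CPM (0.354). All of these genes but Cmpk2 had a lower ratio in granulocytes than in the bundle, where Cmpk2 was at 0.231 (0.202 to 0.263). These differences were not tested, and the intervals of Rsad2 and of Ifit3 overlapped.

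All 3 GTPases that could be read in granulocytes were past 2-fold, including Gbp2 at 147 and 50.6 CPM (0.346, 0.281 to 0.420), the gene that was nearly level in the bundle, Irgm1 at 58.2 and 18.2 CPM (0.316) and Ifi47 with 111 and 29 UMIs (0.403). Cxcl10 was at 24.2 and 7.87 CPM (0.332). Of the sensors 0 of 5 were past 2-fold. Dhx58 had a ratio of 1.30 (0.921 to 1.84) and Zbp1 of 1.05 (0.818 to 1.34), and the Zbp1 value falls below the median gene of granulocytes, whose ratio was 1.08. Ifitm3, the largest single member in the bundle, was at 1077 and 875 CPM (0.812) in granulocytes, whereas Ifi27l2a was at 1364 and 547 CPM (0.401). Oas2 was at 110 and 54.7 CPM (0.499), Oasl2 at 564 and 313 CPM (0.555) and Trim30a, an E3 ligase gene, at 641 and 352 CPM (0.550).

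Within the bundle the module was lower under GM-CSF in 16 of 17 RNA clusters and in all 7 clusters with at least 50 cells in each library, where its ratio ran from 0.397 to 0.702 and that of the core set from 0.252 to 0.660. Cluster 8, which holds most MoMacDC_c4 cells, was the exception with 1562 CPM in 28 steady-state cells and 2978 CPM in 352 GM-CSF cells. Cluster 2 had 10410 CPM in steady state and 5502 CPM under GM-CSF. Cluster 3 had 5513 and 2702 CPM. Of the 35 members with at least 50 UMIs in any of these 7 clusters, 26 were lower under GM-CSF in each cluster where they reached it.

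**Figure D3:**
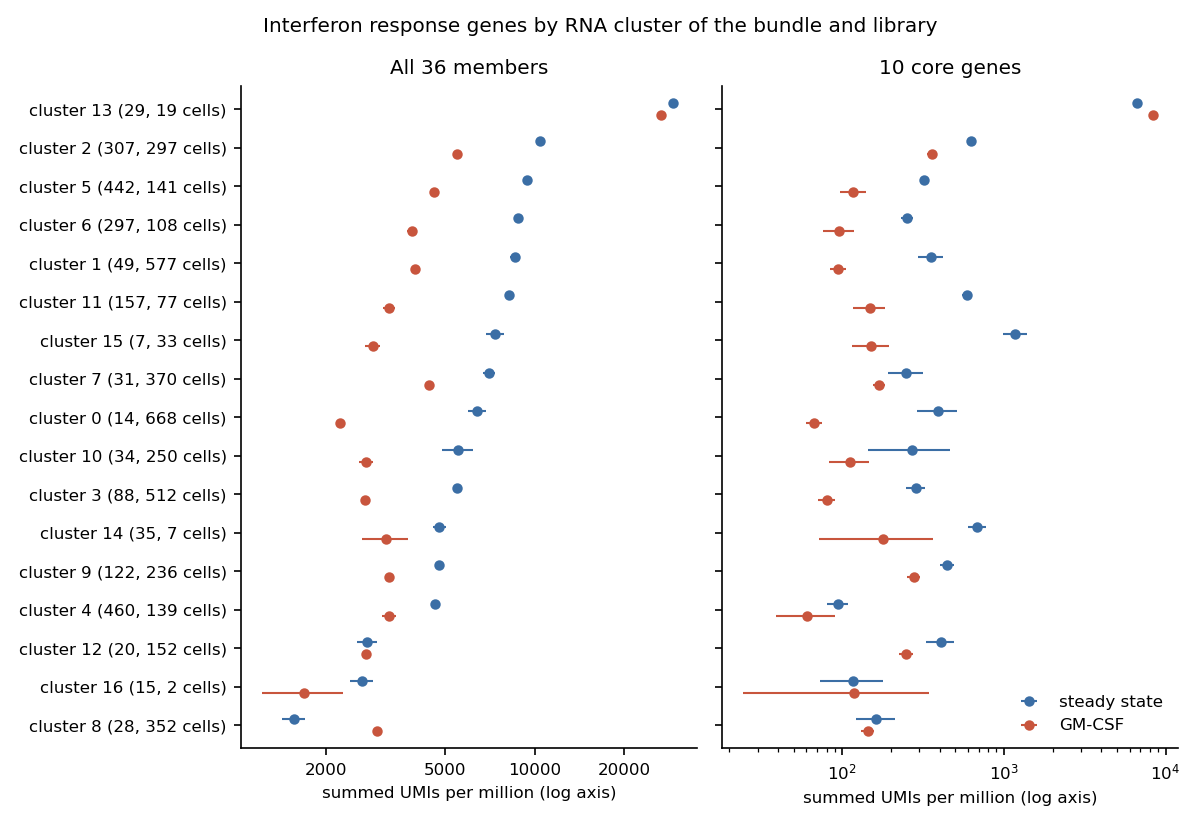
Summed level of all 36 members (left) and of the 10 core genes (right) in CPM on a log axis in each of the 17 RNA clusters of the bundle, steady state in blue and GM-CSF in red, with cell numbers in brackets in that order and exact 95% Poisson intervals. Cluster 13 stands apart in both libraries at 29088 and 26557 CPM.

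Cluster 13 was small and stood apart in both libraries. It held 29 steady-state and 19 GM-CSF cells, all of the type MoMacDC_c1, 28 and 18 of them in G1 phase. Its module level was 29088 CPM (28387 to 29803) in steady state and 26557 CPM under GM-CSF, 3.80 and 7.84 times that of the other bundle cells. Its core level was 6657 and 8397 CPM, 18.2 and 58.3 times that of the others. Every one of its cells had a UMI of at least 7 of the 10 core genes, with a median of 9, and its median depth was 8123 and 7958 UMIs against 6894 and 6654 in the whole bundle. Within this cluster the core set was 1.26 times as high under GM-CSF as in steady state, the reverse of the direction in the rest of the bundle.

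Against the other bundle cells, 33 of 36 members were at least 2-fold higher in cluster 13 in steady state and 34 of 36 under GM-CSF, where 7.35% and 12.5% of all tested genes were. The cluster was built from these genes, so the counts describe it and test nothing. Cxcl10 was at 1577 CPM in steady state and 3104 CPM under GM-CSF, against 33.8 and 10.5 CPM in the other cells. It was found in 24 of 29 and 16 of 19 cells, with up to 63 and 111 UMIs in a single cell. Ifit1 was at 1092 and 1194 CPM against 32.3 and 15.1 CPM, and Isg15 at 1150 and 1808 CPM against 95.6 and 45.9 CPM. Irf9 was the member closest to level, at 116 and 81.9 CPM against 101 and 87.7 CPM.

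These 29 and 19 cells were 1.36% and 0.482% of the bundle and held 5.47% and 4.09% of its module UMIs. They held 21.7% and 24.1% of the core UMIs, and for Cxcl10 41.5% and 61.6%. Without them the bundle module was at 7654 and 3390 CPM (0.443), the core set at 366 and 144 CPM (0.394), and Cxcl10 at 33.8 and 10.5 CPM. The lower level under GM-CSF was thus as large without the cluster.

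Core genes were also counted per cell. Each cell was thinned to 1000 UMIs, which left out 38 steady-state and 578 GM-CSF cells with fewer (496 of the 578 were granulocytes). At least 3 core genes were found in 172 of 1921 steady-state granulocytes (8.95%, 7.71 to 10.3) and in 18 of 1295 under GM-CSF (1.39%, 0.826 to 2.19). Without thinning the shares were 15.0% and 2.29%. In the bundle they were 51 of 2121 cells (2.40%) and 29 of 3879 (0.748%), and 1.29% and 0.363% without cluster 13. Lymphocytes are given for comparison, and their own transcripts cannot be told from free RNA here. They had few such cells, with 0 of 190 and 0 of 77 B cells (upper limits 1.92 and 4.68%, median depths 2976.5 and 2741 UMIs). Of T cells, 2 of 173 in steady state (1.16%, 0.140 to 4.11) and 0 of 39 under GM-CSF were past the limit. The steady-state granulocyte share lay above the limits of both types in that library. The shares of GM-CSF granulocytes and of the bundle without cluster 13 lay within the limits of their own library. At 3 core genes they cannot be told from the lymphocytes, which do not measure free RNA alone, and the GM-CSF limits rest on 77 and 39 cells. The core level was 341 CPM in GM-CSF granulocytes, against 75.7 CPM in B cells and 144 CPM (78.8 to 242) in T cells. In steady state the bundle without cluster 13 had 366 CPM, against 140 CPM in B cells and 243 CPM (209 to 282) in T cells. Under GM-CSF it had 144 CPM, within the T cell interval.

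The number of cells fell off steadily with the number of core genes. In steady-state granulocytes 1105 cells had 0 core genes, 469 had 1, 175 had 2, 80 had 3, 49 had 4 and 43 had 5 or more. A limit of 3 therefore cuts a range and does not mark a type. Of the 228 steady-state cells past the limit, 172 were granulocytes and 24 were in cluster 13, and of the 50 under GM-CSF these were 18 and 15. The 5% of cells with the most module UMIs held 15.1 and 17.3% of them in the bundle in steady state and under GM-CSF, and 23.5 and 20.8% in granulocytes.

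**Figure D4:**
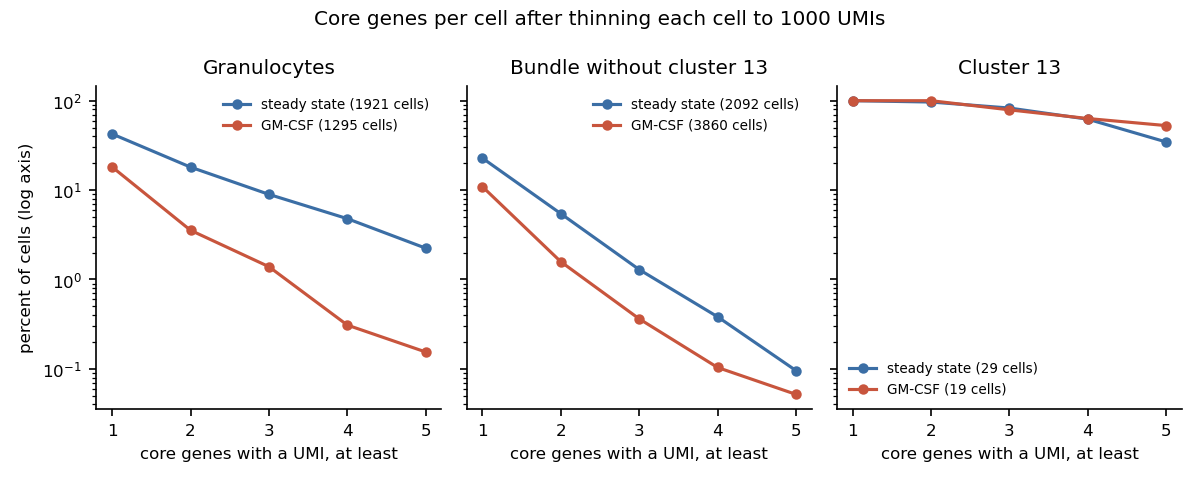
Percent of cells (log axis) with a UMI of at least 1 to 5 core genes after thinning to 1000 UMIs, in granulocytes, in the bundle without cluster 13 and in cluster 13, steady state in blue and GM-CSF in red. Outside cluster 13 the GM-CSF line lies below the steady-state line at every number, for example 1.39 against 8.95% of granulocytes at 3, whereas in cluster 13 both lines stay near each other (82.8 and 78.9% at 3).

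The CD115hi subsets of the bundle were gated by the authors on antibody tags and not on RNA, so the member genes did not define them. P-I denotes classical monocytes, P-II non-classical monocytes, P-III the precursors of GM-CSF-induced DCs and P-IV those DCs. In P-I the module was at 9747 CPM in 139 steady-state cells and 4695 CPM in 187 GM-CSF cells (0.482, 0.467 to 0.497), and the core set at 499 and 240 CPM. Of 34 members with at least 50 UMIs (all but Oasl1 and Ifi44), 14 were at least 2-fold lower and 0 at least 2-fold higher, where 7.12% and 4.99% of all 5774 tested genes were. The 4 classical monocyte markers were at 2536 and 977 CPM in these cells, and their part in the result was not tested.

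The 14 genes spanned the roles. Ifi204 was at 431 CPM in steady-state P-I and 148 CPM in P-I under GM-CSF, Irf7 at 178 and 67.4 CPM, Usp18 at 43.9 and 12.2 CPM, Oasl2 at 183 and 76.7 CPM and Ifitm3 at 3858 and 1527 CPM. Ifit1 was at 64.1 and 19.4 CPM, Ifit3 at 52.2 and 14.3 CPM, Rsad2 at 59.5 and 22.2 CPM, Cmpk2 at 49.4 and 21.5 CPM and Mx1 at 57.7 and 24.4 CPM. The others were Oas1a at 68.6 and 33.7 CPM, Oas2 at 64.1 and 25.8 CPM, Irgm1 at 96.1 and 38.7 CPM and Ifi27l2a at 2013 and 820 CPM. Isg15 with 107 and 83.2 CPM stayed within 2-fold. Cxcl10 with 52.2 and 55.2 CPM, Dhx58 with 65.9 and 69.6 CPM and Gbp3 with 82.4 and 88.9 CPM were slightly on the higher side, with intervals that spanned 1.

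Within the GM-CSF library the module level stepped down from P-I at 4695 CPM through P-III at 3383 CPM (126 cells, 3252 to 3518) to P-IV at 2503 CPM (313 cells, 2438 to 2570). The ratio to P-I was 0.721 (0.688 to 0.755) for P-III and 0.533 (0.514 to 0.553) for P-IV, and both share the P-I cells. The core set did not follow this order, with 240 CPM in P-I, 75.7 CPM (57.2 to 98.3) in P-III and 106 CPM (92.8 to 120) in P-IV, and the last pair of intervals overlapped. The few steady-state cells in these gates, 12 in P-III and 7 in P-IV, had 6657 and 7857 CPM. P-II had 8 cells in each library and is not described further.

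In P-IV against P-I, 30 members had at least 50 UMIs over both (Oasl1, Ifit1, Ifit3, Rsad2, Cmpk2 and Ifi44 did not), and 15 of them were at least 2-fold lower and 0 at least 2-fold higher. Of 6803 tested genes 3.53% were at least 2-fold lower and 3.63% at least 2-fold higher. The median log2 ratio of the members was -0.94, against 0.02 over all genes. In cells thinned to 1000 UMIs the count of lower members was 2, since only 7 members then reached 50 UMIs.

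Cxcl10 had the lowest ratio of those tested, with 55.2 CPM in P-I and 7.12 CPM in P-IV (0.132). Its 77 P-I UMIs, which the P-III ratio below also uses, may sit in few cells. In the GM-CSF bundle, 19 cells of cluster 13 held 61.6% of all Cxcl10 UMIs, but 17 of these 19 lay outside the CD115hi gate and so outside P-I. Oas3 was at 75.3 and 12.9 CPM (0.173), Irf7 at 67.4 and 16.0 CPM (0.240) and Dhx58 at 69.6 and 18.7 CPM (0.270). Oasl2 was at 76.7 and 22.2 CPM (0.291), Ifi204 at 148 and 45.8 CPM (0.311), Oas2 at 25.8 and 8.45 CPM (0.331), Rtp4 at 76.0 and 27.1 CPM (0.358) and Isg15 at 83.2 and 30.2 CPM (0.365). The other 6 lower members lay between 0.381 and 0.487. They were Irgm1 (38.7 and 14.7 CPM), Ddx58 (84 and 54 UMIs), Zbp1 (91.1 and 37.4 CPM), Ifit2 (22.9 and 10.2 CPM), Ifitm3 (1527 and 692 CPM) and Ifi27l2a (820 and 399 CPM). The signalling subunits Stat2 (0.895, 0.661 to 1.22) and Irf9 (0.948, 0.757 to 1.19) had intervals that spanned 1. Ifi44 had 0 UMIs in P-IV and 6 in P-I.

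Gbp2 and Gbp3 went the other way. Gbp2 was at 56.6 CPM in P-I and 80.1 CPM in P-IV (1.41, 1.08 to 1.87), and Gbp3 at 88.9 and 129 CPM (1.45, 1.17 to 1.81), both short of 2-fold. In MoMacDC_c2, Gbp2 was at 26.3 CPM in steady state and 66.9 CPM under GM-CSF (2.51, 1.86 to 3.56) and Gbp3 at 26.9 and 125 CPM (4.58, 3.41 to 6.43), while Irf7 in the same cells was at 95.8 and 12.7 CPM. In cluster 3, Gbp2 was at 6.88 and 45.6 CPM and Gbp3 at 16.5 and 104 CPM. Its 88 steady-state cells had 727070 UMIs in all, so the steady-state levels of both genes rest on few UMIs. Among clusters with at least 50 cells in each library, Gbp2 was lower under GM-CSF in 5 of 7 and Gbp3 in 2 of 6 with enough UMIs. In granulocytes and in MoMacDC_c5, in contrast, Gbp2 was lower under GM-CSF, at 38.6 and 12.8 CPM in the second.

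P-III against P-I had 26 members with at least 50 UMIs, and 8 were at least 2-fold lower and 0 at least 2-fold higher, beside 2.71% and 1.11% of 5233 tested genes. Of the 5 sensors 4 were among the 8. Zbp1 was at 91.1 CPM in P-I and 37.9 CPM in P-III, Ifi204 at 148 and 67.6 CPM, Ddx58 at 60.2 and 24.3 CPM and Dhx58 at 69.6 and 31.1 CPM. The others were Irf7 at 67.4 and 12.2 CPM, Isg15 at 83.2 and 21.6 CPM, Oas3 at 75.3 and 27.0 CPM and Cxcl10 with 77 and 1 UMIs (0.0365, 0.000612 to 0.141). Ifitm3 was only slightly lower, at 1527 and 1156 CPM. The 9 neutrophil markers summed to 3704 CPM in P-I, 257 CPM in P-III and 230 CPM in P-IV, and the 4 erythroid markers to 1.43, 0 and 837 CPM in the same order, and their part in these ratios was not tested.

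**Figure D5:**
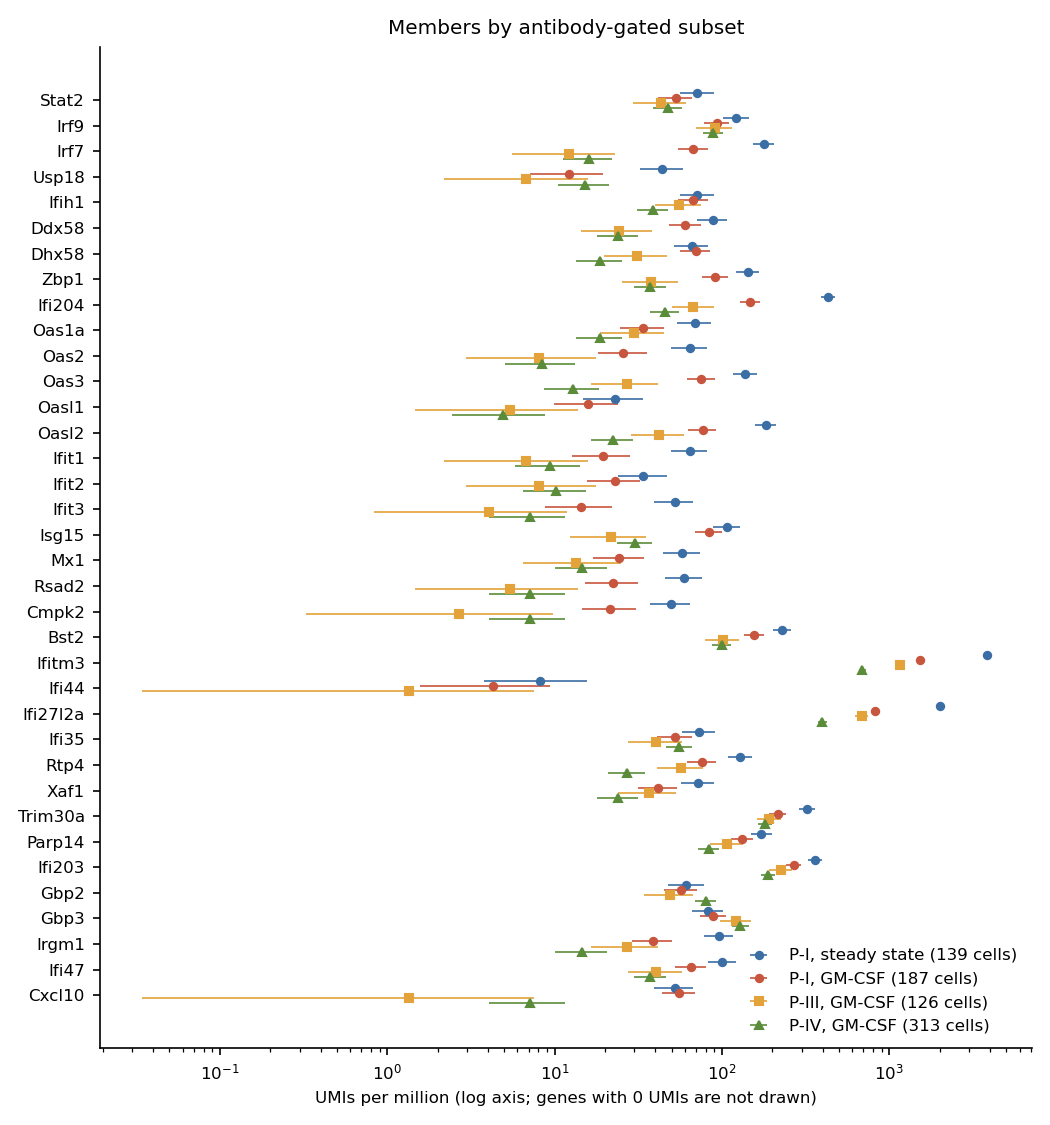
Level of each member in CPM on a log axis in steady-state P-I (139 cells), P-I under GM-CSF (187), P-III (126) and P-IV (313), with exact 95% Poisson intervals; a gene with 0 UMIs in a group has no point there. Steady-state P-I lies farthest right for most members, for example Ifi204 at 431 CPM, whereas Gbp2 and Gbp3 lie highest in P-IV at 80.1 and 129 CPM.

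Other genes of the pathway, outside the 36, were read from fixed lists. All 21 listed interferon ligand genes were in the table, but type I and III interferons had 2 UMIs in all 11631 cells, both of Ifnk. Ifng, the type II interferon, had 366 UMIs, 41 of them in steady-state bundle cells and 0 in GM-CSF bundle cells. The steady-state bundle included NK-marked cells, 27 of them in MoMacDC_c4, and their part in the 41 UMIs was not tested. In the bundle, the receptor genes Ifnar1 (83.0 CPM in steady state and 51.7 CPM under GM-CSF) and Ifnar2 (125 and 72.6 CPM) were lower by less than 2-fold. The kinase genes Tyk2 (56.0 and 93.8 CPM) and Jak2 (69.5 and 98.3 CPM) were on the higher side.

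Of all genes tested in the bundle 9.46% were at least 2-fold lower and 8.66% higher, as above. Of 15 regulators and adaptors 3 were at least 2-fold lower and 1 higher, the second near that background. The lower ones were Irf1 at 160 and 63.0 CPM, Socs3, a feedback inhibitor of cytokine receptors, at 115 and 31.6 CPM and Tlr7, an endosomal RNA sensor, at 129 and 14.5 CPM. The higher one was the adaptor gene Ticam1, at 15.8 and 34.1 CPM, and Tmem173, which encodes STING, was at 58.7 and 91.7 CPM. Of 41 other interferon-induced genes tested, 15 were at least 2-fold lower, among them Ly6e at 1643 and 552 CPM and the Fc receptor gene Fcgr1 at 87.7 and 11.7 CPM, and 2 were at least 2-fold higher, Gbp4 at 8.56 and 24.1 CPM and Gbp8 at 9.70 and 24.6 CPM. Other genes of the guanylate-binding protein family did not share this direction, with Gbp5 among the lower genes at 17.8 and 8.60 CPM (0.484), Gbp9 at a ratio of 0.868 and Gbp7 at 1.14. The median log2 ratio of these 41 was -0.69.

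The members did not vary alike over the populations. Over 37 groups of at least 50 cells (cell types and bundle clusters in each library, which share cells and libraries), the Pearson r between the log2 level of a member and that of the summed core set was highest for Ifit1 (0.905), Ifit3 (0.867), Rtp4 (0.865), Isg15 (0.863) and Oasl2 (0.858). The core set contains Ifit1, Ifit3 and Isg15 but not Rtp4 or Oasl2. It was lowest for Bst2 (0.100), Ifi203 (-0.072) and Gbp3 (-0.222). Among 9716 other genes the most alike were AW011738 (0.810), Ptgs2 (0.801), a cyclooxygenase gene, and Ifit3b (0.779). These correlations describe the groups and carry no test.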

How the data were processed

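The authors counted RNA with Cell Ranger 3.0.2 on mm10, filtered cells on genes and mitochondrial share, integrated the 2 libraries in Seurat, gated subsets on antibody tags, and deposited raw counts (UMIs per gene) with labels of each cell for cell type, cluster, subset and phase. Counts were summed per group, divided by the group total (CPM) and given exact Poisson intervals. Ratios of sums had 0.5 UMIs added to each sum and an exact conditional interval, shares an exact (Clopper-Pearson) interval. A gene counted as higher or lower at 2-fold with at least 50 UMIs over both groups. Cells were thinned to 1000 UMIs (seed 61). Doublets were called with Scrublet in scanpy 1.11.5 and left out only in an alternative. Ratios were tested on simulated data. Values are given for the members past 2-fold in a main comparison and for those highest in their role, and the others are summarised. The members and lists were chosen with earlier results of these data known. The antibody counts themselves and the bulk data were not analysed here. Gene names were used as in the files, and the promoter table matched 27 of 36 members. No test between conditions was made. Python 3.11.15, numpy 2.4.6, scipy 1.17.1, pandas 2.3.3, anndata 0.12.19 and matplotlib 3.10.9 were used. Alternatives covered thinning, the 3 members with the most UMIs, means over cells, scaling by the median gene, doublets, mitochondrial share, NK-marked cells, cluster 13, the UMI minimum and the core gene number.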

Additional observations from a re-analysis of the deposited data

Results flagged for a closer look

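The module ratio of MoMacDC_c4, 1.93 under GM-CSF against steady state, was on the opposite side of 1 from that of the other 11 cell types, and the difference was not tested. It rested on 43 steady-state cells and was 1.13 without the 27 that carried at least 3 NK marker UMIs.

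Gbp3 had a ratio of 1.47 in the bundle while the other 35 members were below 1, and the difference was not tested. Its ratio was 1.56 without cluster 13. The direction was not the same in all clusters of the bundle. Among clusters with at least 50 cells in each library, Gbp3 had enough UMIs in 6 and was lower under GM-CSF in 2 of them. It was at least 2-fold lower in 1 and at least 2-fold higher in 1, and the ratios ran from 0.432 to 6.04.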

How the results depend on the processing

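No paired analysis was possible because each condition had 1 library and no result came from a test, so no replicate could be left out either. Of 69 alternative values 44 stayed within the interval of the reported value or, for counts, close to it, and 25 moved further. Among the ratios 0 changed direction, while counts and shares were not checked for direction. The 44 include the counts of members at least 2-fold higher, which were 0 in every setting. The bundle ratio of 0.441 became 0.462 after thinning, 0.524 without the 3 members with the most UMIs, 0.455 as a mean over cells, 0.460 scaled to the median gene, 0.446 without doublets, 0.421 in cells of at most 5% mitochondrial UMIs and 0.434 without NK-marked cells, and the count of 20 lower members ran from 15 to 21. The granulocyte ratio of 0.515 became 0.467 without the 3 members, 0.489 as a mean over cells and 0.478 scaled. The 15 members lower in P-IV than P-I became 2 after thinning, because only 7 still had 50 UMIs. The P-III to P-I ratio of 0.721 became 0.634 without the 3 members, and that of P-IV, 0.533, became 0.577 without them and 0.561 as a mean over cells. The MoMacDC_c4 ratio of 1.93 became 1.13 without NK-marked cells, an alternative added after seeing the data. Without thinning, the shares of cells with at least 3 core genes were 23.9 and 7.51% in the bundle and 15.0 and 2.29% in granulocytes in steady state and under GM-CSF, and with at least 2 core genes 6.69 and 2.06% and 18.1 and 3.55%. The 5% of cells with the most module UMIs held 16.4% in the steady-state bundle and 23.5% in GM-CSF granulocytes without thinning. The doublet calls were unstable, since another seed called 2 and not 141 of the steady-state cells. With 1 library per condition, differences between mice, sorting and library preparation cannot be told apart from GM-CSF.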
